A study of Mus musculus with 9 samples.

Results

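The hypoxia response and glycolysis genes are 40 mouse genes chosen by symbol, out of 22135 genes counted in bulk RNA of melanoma tumors. They comprise 2 glucose importers, 14 glycolytic enzymes, 4 genes of lactate and pyruvate handling and 2 regulators of fructose bisphosphate. The other 18 are the sensors of oxygen and a range of their transcriptional targets. The rule uses symbols and no threshold on measured values. All 40 passed the filter on low counts that left 12964 genes for testing.

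The tumors grew in immunocompetent C57BL/6J mice after subcutaneous injection of YUMMER1.7, mouse melanoma cells whose mutation load was raised with ultraviolet light so that the immune system sees them better. When tumors measured between 20 and 50 mm3, mice received an IgG isotype control, an antibody against B7-H3 or an antibody against PD1, 2 proteins that restrain immune responses. There were 3 libraries in each of the 3 groups, made from total RNA with an integrity number of at least 7.0 and at least 500 ng, after depletion of ribosomal RNA. The series' design text also describes a group given both antibodies, which was not analysed here. Dose, schedule, age, sex and day of harvest are not stated in the sources used here, and all groups rest on the same 1 injected cell line in 1 strain. Whether separate mice gave the separate libraries is not stated, and p-values therefore reflect the spread of these samples, which may be technical.

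Cells short of oxygen stabilise HIF, a transcription factor made of an oxygen-regulated alpha subunit (Hif1a or Epas1) and a constant partner. When oxygen is present, the EGLN prolyl hydroxylases mark the alpha subunit for destruction through VHL. Stabilised HIF binds short ACGTG or GCGTG cores and raises transcription of glucose importers, glycolytic enzymes, lactate exporters, the angiogenic factor Vegfa and a feedback set that includes Egln3. Glycolysis converts glucose to pyruvate, and many tumor cells and activated immune cells turn that pyruvate into lactate even when oxygen is at hand. Much of the response of HIF itself happens at the protein level, which RNA does not show.

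The libraries held between 8627930 and 27288766 estimated reads, but a large part came from 12 major satellite genes, which carry the tandem repeat of mouse centromeres. Satellite genes took 87.0 to 92.1% of gene reads in the IgG libraries, 5.24 to 28.2% under anti-B7-H3 and 14.6 to 38.2% under anti-PD1. Reads outside them came to 1218985 in IgG replicate 3, the fewest, and to 14404557 in anti-B7-H3 replicate 3, the most. Transcripts of 1509 olfactory and vomeronasal receptor genes, silent in most tissues, made up 767 to 4969 CPM outside the satellite genes under IgG and 40.4 to 279.6 CPM in the antibody libraries. These measures separate the IgG group from both antibody groups, so they and treatment cannot be told apart in a comparison with IgG. They also varied within the anti-B7-H3 group: satellite genes took 28.2, 5.24 and 6.41% in replicates 1, 2 and 3, and receptor genes 198, 41.3 and 40.4 CPM. Replicates 2 and 3 were the lowest of the 9 libraries in both. Their part in the difference between the antibodies was not tested. A fit with the receptor level as a covariate, given below, cannot decide it. The labelled tissue was also checked against the pigment cell markers. Summed over 12 melanocyte genes the level was 13.3 to 38.2 TMM-scaled CPM under IgG and 4.81 to 10.3 in the antibody libraries, and Tyr, Tyrp1, Dct, Pmel and Mlana were each at or below 1.84 CPM in every library. These 5 pigment genes were therefore near 0. Others of the 12 were higher. Mitf was at 4.24 to 9.66 CPM over all libraries, and Sox10 was at 4.14 in IgG replicate 3. Slc24a5 was at 5.59 to 13.3 CPM under IgG and at most 0.364 in the antibody libraries. The samples are called tumors here by their label.

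Per kilobase of effective coding length, the only scale on which different genes are compared here, the lower part of glycolysis held the highest levels. Gapdh, which oxidises glyceraldehyde 3-phosphate, averaged 966 TMM-scaled CPM per kilobase over the 9 libraries. It was followed by the pyruvate kinase gene Pkm at 586, the enolase gene Eno1 at 475, the aldolase gene Aldoa at 389 and the lactate dehydrogenase gene Ldha at 265. The first steps stood far lower on the same scale, with the hexokinases Hk1 at 36.0 and Hk2 at 8.04 and the glucose importer Slc2a1 at 32.9. Hif1a averaged 43.4 per kilobase and its relative Epas1 4.98. The lowest members were Car12 at 0.562, Slc2a3 at 0.668 and Aldoc at 0.929, whose counts are so small that single reads weigh in their ratios. The order spans the same range in the 3 groups, as the plot of levels per length shows.

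**Figure D1:**
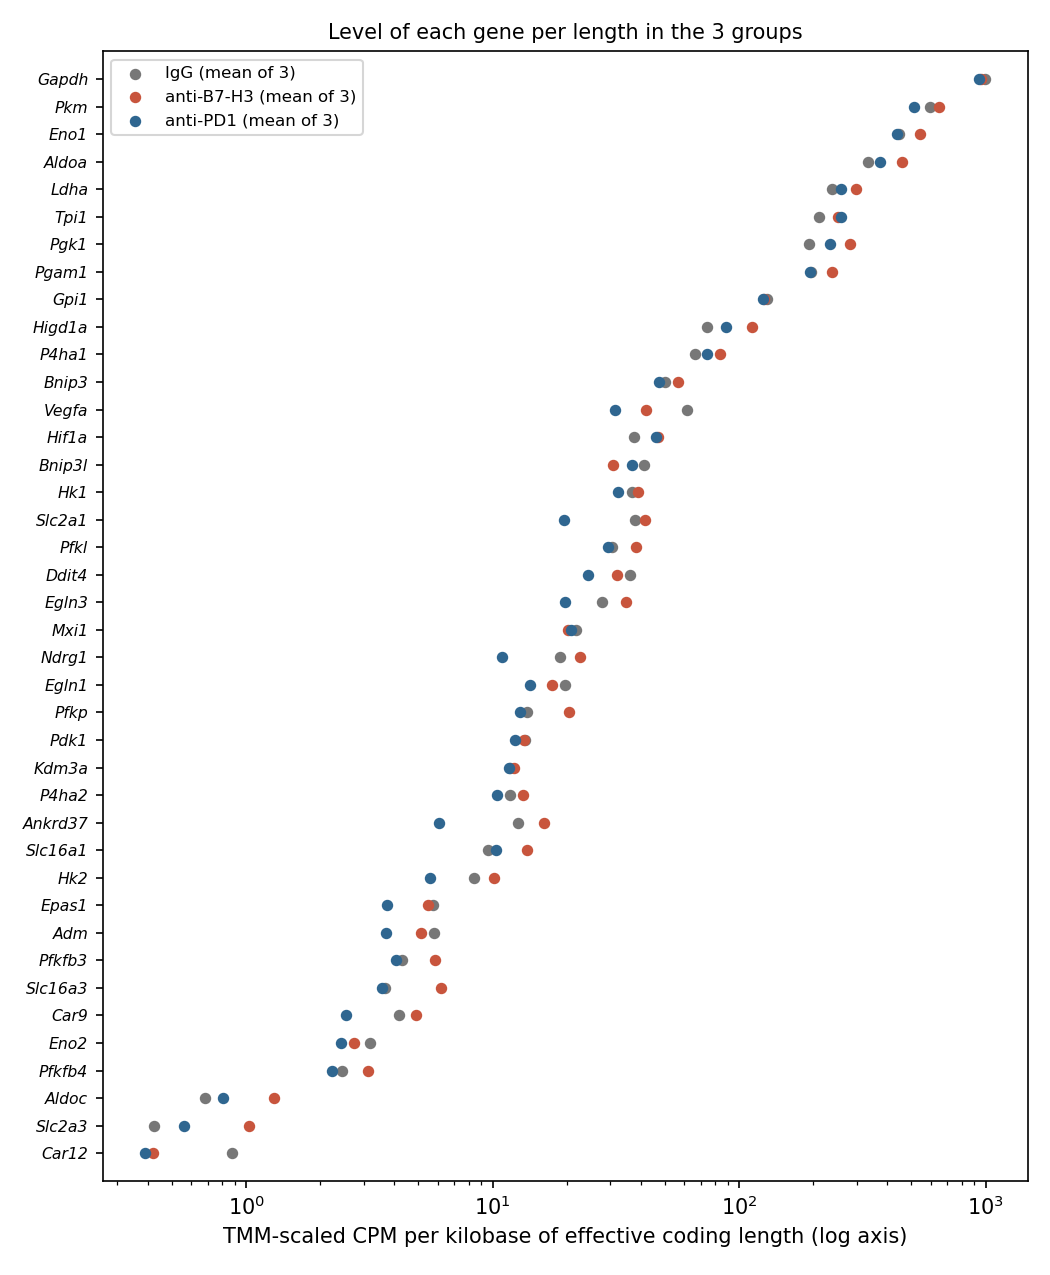
Mean TMM-scaled CPM per kilobase of effective coding length (log axis) of each of the 40 genes in the IgG, anti-B7-H3 and anti-PD1 groups, 3 libraries each. Gapdh stands highest at an average of 966 and Car12 lowest at 0.562, and for most genes the anti-B7-H3 point lies to the right of the anti-PD1 point.

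None of the 40 genes passed the edgeR quasi-likelihood test with Benjamini-Hochberg adjustment at 0.05, in any of the 3 pairs of groups or in the test over all 3. The estimates nevertheless leaned to one side in the comparison of the 2 antibodies: 38 of 40 were higher under anti-B7-H3 than under anti-PD1, with a median log2 fold change of 0.38, whereas 51.1% of all tested genes were higher and their median was 0.01. Against IgG, 31 of 40 were higher under anti-B7-H3 (median 0.30, beside 0.03 for all tested genes) and 17 of 40 under anti-PD1 (median -0.06, beside 0.01). The smallest p-values belonged to Ankrd37, Egln3, Hk2, Slc2a1 and Slc16a3 between the antibodies. Against IgG, they belonged to Vegfa, Ankrd37, Slc2a1 and Egln1, all with negative estimates, for anti-PD1 and to Slc2a3 and Higd1a, both with positive estimates, for anti-B7-H3. The 2 comparisons with IgG use the same 3 control libraries.

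The smallest adjusted p in the edgeR test was 0.428 when anti-B7-H3 was compared with IgG, 0.134 when anti-PD1 was, 0.749 between the antibodies and 0.185 over all 3 groups. Adjusted calls were rare among all genes as well. Of all tested genes 0.555% were called between anti-B7-H3 and IgG, 0.393% between anti-PD1 and IgG, 0.0% between the antibodies and 1.14% over the 3 groups, so 0 of 40 members is near the background in each. Those shares rest on 72 and 51 called genes against IgG, and leaving out 1 library moved the numbers to between 8 and 441 and between 9 and 432, lowest without IgG replicate 1 and highest without IgG replicate 2. At an unadjusted threshold of 0.05, 2 of 40 members passed between anti-B7-H3 and IgG (10.5% of all tested genes), 4 between anti-PD1 and IgG (18.5%), 5 between the antibodies (6.49%) and 5 over the 3 groups (14.0%). Between the antibodies, that share of members is above the background, and in both comparisons with IgG it is below it.

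Separation of the libraries was read without a test, but on TMM-scaled CPM, so it rests on that scaling. Between the antibodies, all 3 anti-B7-H3 libraries lay above all 3 anti-PD1 libraries for 7 of 40 members (7.57% of all tested genes) and below them for 0 (7.88%). The 7 were Slc2a3, Hk1, Pkm, Slc16a1, Pfkfb4, Egln3 and Ankrd37. The nearest libraries were close for some, such as Hk1 (96.3 and 96.1 CPM), and further apart for others, such as Slc2a3 (0.973 and 0.746 CPM). A small change of scale in 1 library would undo the closest separations. With anti-PD1, all 3 libraries lay below all 3 IgG libraries for Hk2, Egln1, Vegfa, Ankrd37 and Ndrg1, 5 of 40 (11.9%), and above them for 0 (11.1%). With anti-B7-H3, all 3 lay above IgG for Slc2a3 and Aldoc, 2 of 40 (7.73%), and below it for 0 (8.55%). The counts of 7 and 5 are 17.5% and 12.5% of the members, the first above the share of all genes and the second near it.

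**Figure D2:**
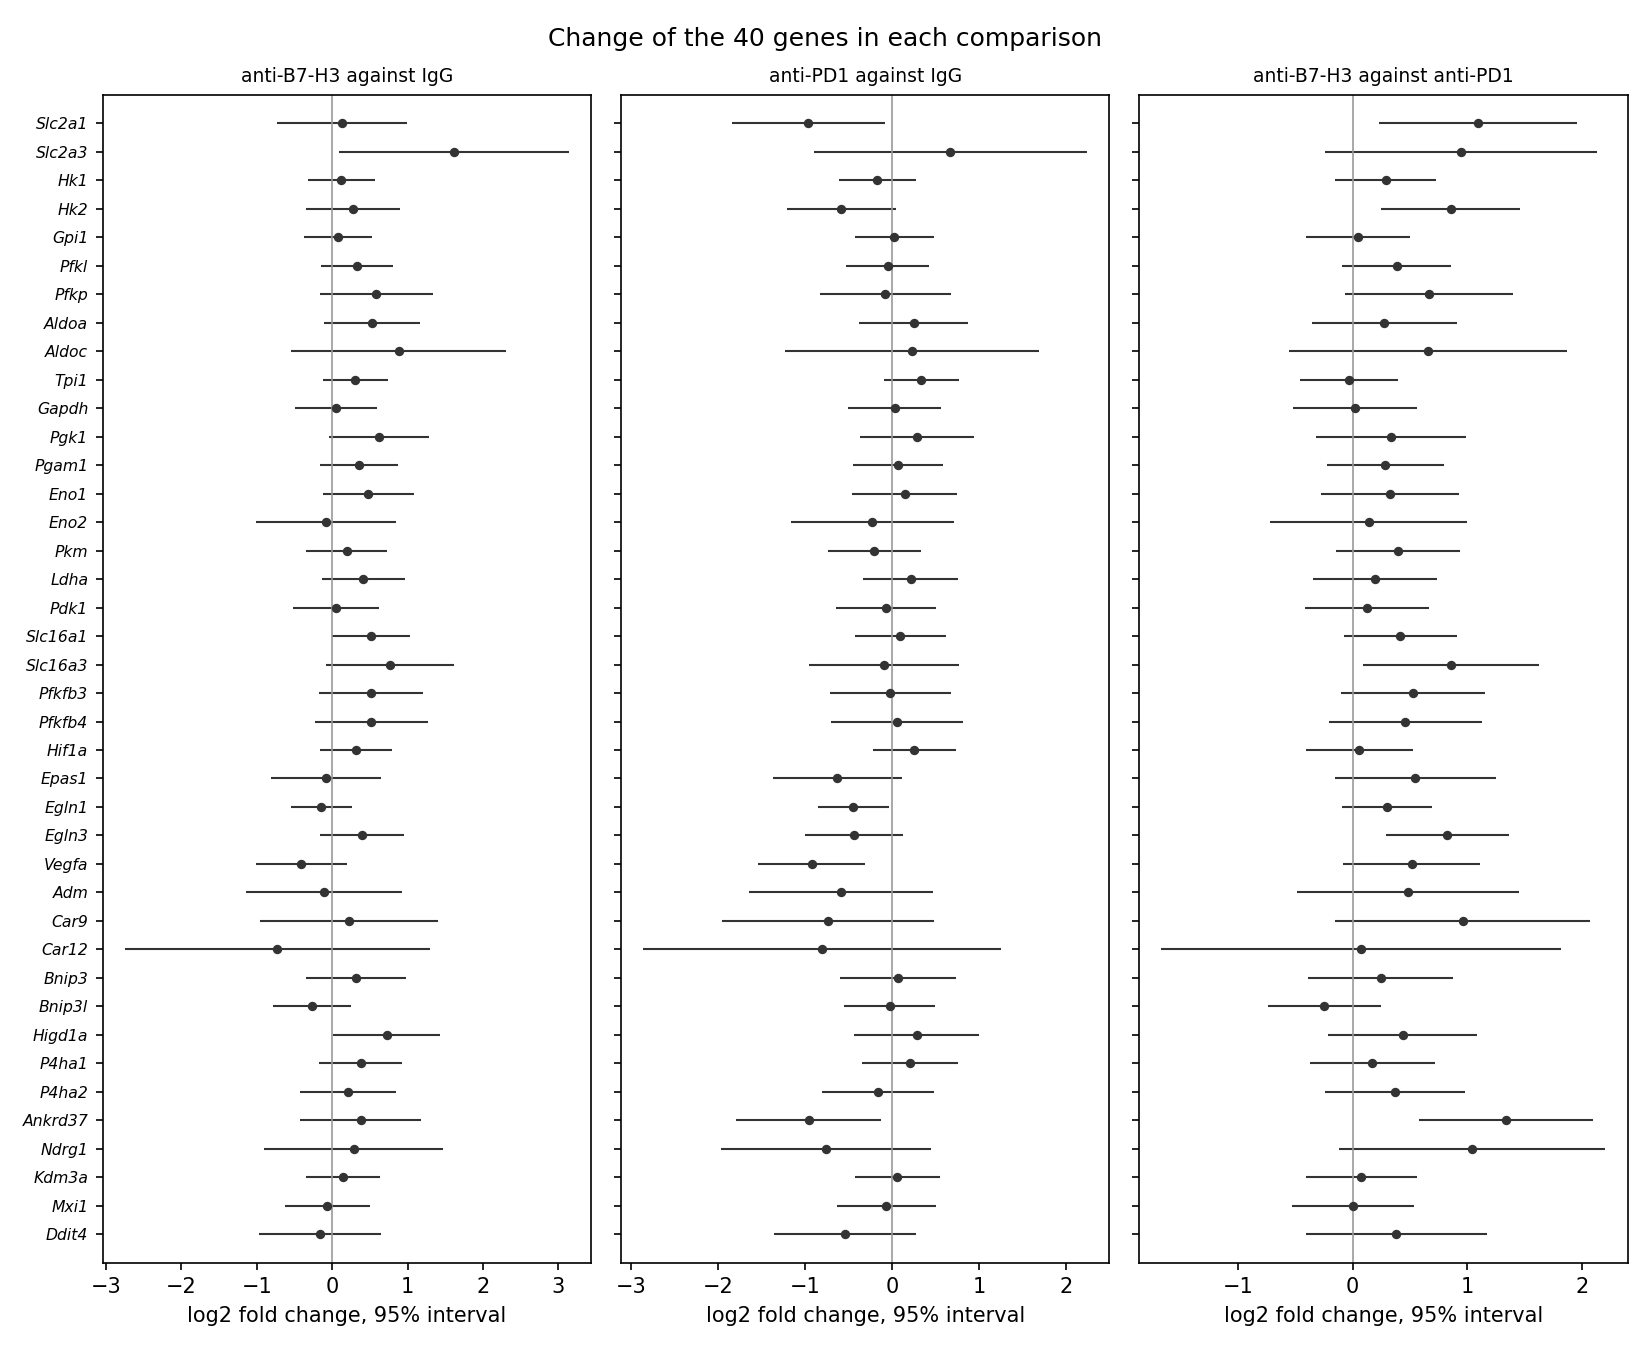
Log2 fold change (points) with 95% interval (lines) of the 40 genes, from the edgeR fit, in the 3 pairs of groups named above the panels. In the right panel 38 of 40 points lie above 0, and the intervals of Slc2a1, Hk2, Slc16a3, Egln3 and Ankrd37 exclude 0 before adjustment.

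Single libraries stood apart from others of their group. Relative to each gene's mean over the 9 libraries, on a scale of log2(CPM + 0.5), the median member stood at 0.10, 0.01 and -0.23 in IgG replicates 1, 2 and 3. It stood at -0.20, 0.32 and 0.47 in the anti-B7-H3 libraries and at -0.03, -0.08 and -0.18 in the anti-PD1 libraries. Anti-B7-H3 replicates 2 and 3 were thus the 2 highest of the 9, with 39 and 34 of 40 members above their own means, while replicate 1 of that group had 9.

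Anti-B7-H3 replicate 1 was the lowest of its group for 32 of 40 members (80.0%, against 38.8% of all tested genes). IgG replicate 3 was the lowest of its group for 26 of 40 (65.0%, against 37.5%), among them 13 of the 14 glycolytic enzymes. Without anti-B7-H3 replicate 1 the median member difference grew to 0.49 against IgG and to 0.52 against anti-PD1, and without replicate 3 it came to 0.14 and 0.22. Without IgG replicate 3 the median against IgG was 0.21 under anti-B7-H3 and -0.10 under anti-PD1. Direction of the median between the antibodies was the same whichever library was left out, with 32 to 38 of 40 members higher under anti-B7-H3. Each of these fits keeps replicate 2 or 3 of anti-B7-H3 and most of the same libraries, so the constant direction is not separate evidence of a difference.

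**Figure D3:**
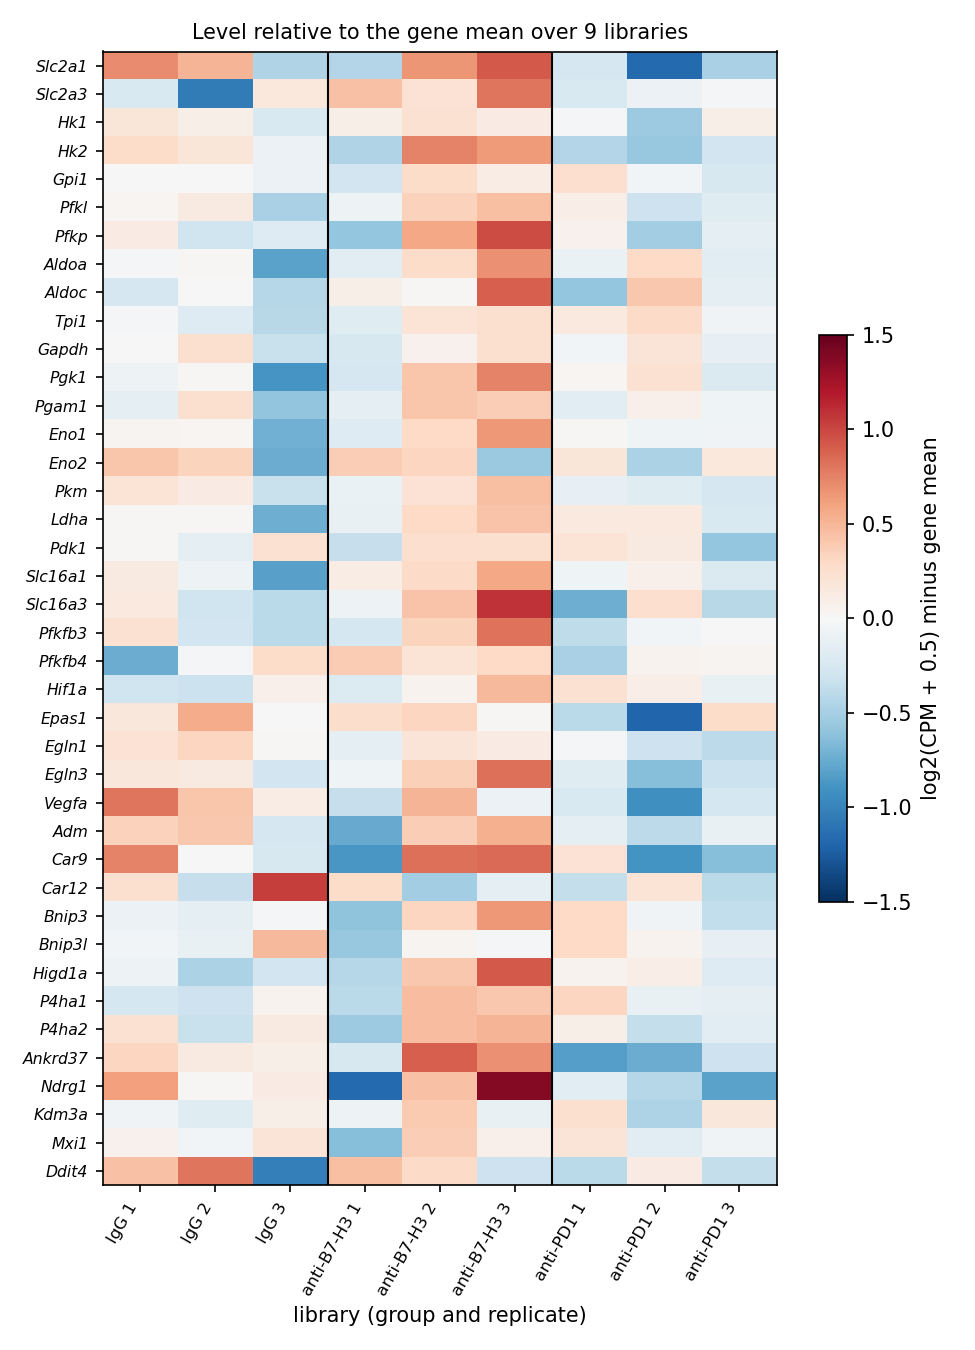
Log2(CPM + 0.5) of each gene minus its mean over the 9 libraries, with libraries in columns by group and replicate and vertical lines between groups. Anti-B7-H3 replicates 2 and 3 are red for most genes (medians 0.32 and 0.47), whereas anti-B7-H3 replicate 1 and IgG replicate 3 are mostly blue (medians -0.20 and -0.23).

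Marker genes of other cells also differed between these libraries. The summed level of 12 skeletal muscle genes, a tissue rich in glycolytic enzymes that lies beneath the skin, ranged from 32.5 to 62.0 CPM under IgG, from 1.19 to 1777 under anti-B7-H3 and from 75.7 to 1210 under anti-PD1. Muscle genes were nearly absent, at 1.19 CPM, in anti-B7-H3 replicate 2, where 39 of 40 members were above their means, and were highest in replicate 3. The summed level of 12 macrophage markers was 229.7 to 621 CPM under IgG, 661 to 1217 under anti-B7-H3 and 492 to 1343 under anti-PD1, the top values being those of anti-PD1 replicate 2 and of replicate 3 given anti-B7-H3. Endothelial markers (9 genes) ranged from 157 to 172, 121 to 199.7 and 148 to 187 CPM in the same order. Fibroblast markers (8 genes) were at 2752 CPM in IgG replicate 3 and between 4359 and 8632 in the 8 other libraries. The summed level of 12 keratinocyte markers was 13.9 to 39.6 CPM under IgG and 0.750 to 3.58 in the antibody libraries, and that of 7 erythroid markers was 64.8 to 360.4 and 20.9 to 56.2, so both lists separated IgG from the antibodies, as the levels of Vegfa, Egln1, Hk2, Ankrd37 and Ndrg1 separated IgG from anti-PD1. Neutrophil (9 genes), T cell (8 genes) and adipocyte markers (8 genes) ranged from 4.43 to 14.7, 7.82 to 22.8 and 3.22 to 11.05 CPM over the 9 libraries, with overlap of IgG and the antibodies. The part of these cells in the members' levels was not tested, and in bulk RNA fewer cells of a type and less RNA per cell cannot be told apart.

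Slc2a1, the widely expressed glucose importer GLUT1 and a classic HIF target, was the more abundant of the 2 importers per length. Its TMM-scaled CPM was 62.5, 54.4 and 27.6 under IgG, 27.8, 60.2 and 72.1 under anti-B7-H3, and 31.9, 16.6 and 26.8 under anti-PD1. Anti-B7-H3 replicate 1 and IgG replicate 3 fell into the range of the anti-PD1 libraries, so the groups overlapped. Its log2 fold change was 1.09 ± 0.39 (SE) between the antibodies (edgeR adjusted p = 0.749), -0.96 ± 0.40 for anti-PD1 against IgG (adjusted p = 0.232) and 0.13 ± 0.39 for anti-B7-H3 against IgG.

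Slc2a3, the high-affinity importer GLUT3 of neurons and leukocytes, was barely present. It was at 0.584, 0.112 and 0.920 CPM under IgG, 1.23, 0.973 and 1.72 under anti-B7-H3, and 0.583, 0.690 and 0.746 under anti-PD1. The anti-B7-H3 libraries were above all others without overlap. The estimate against IgG, 1.62 ± 0.69 on the log2 scale (edgeR adjusted p = 0.428), rests on 3 and 1 reads in IgG replicates 1 and 2.

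**Figure D4:**
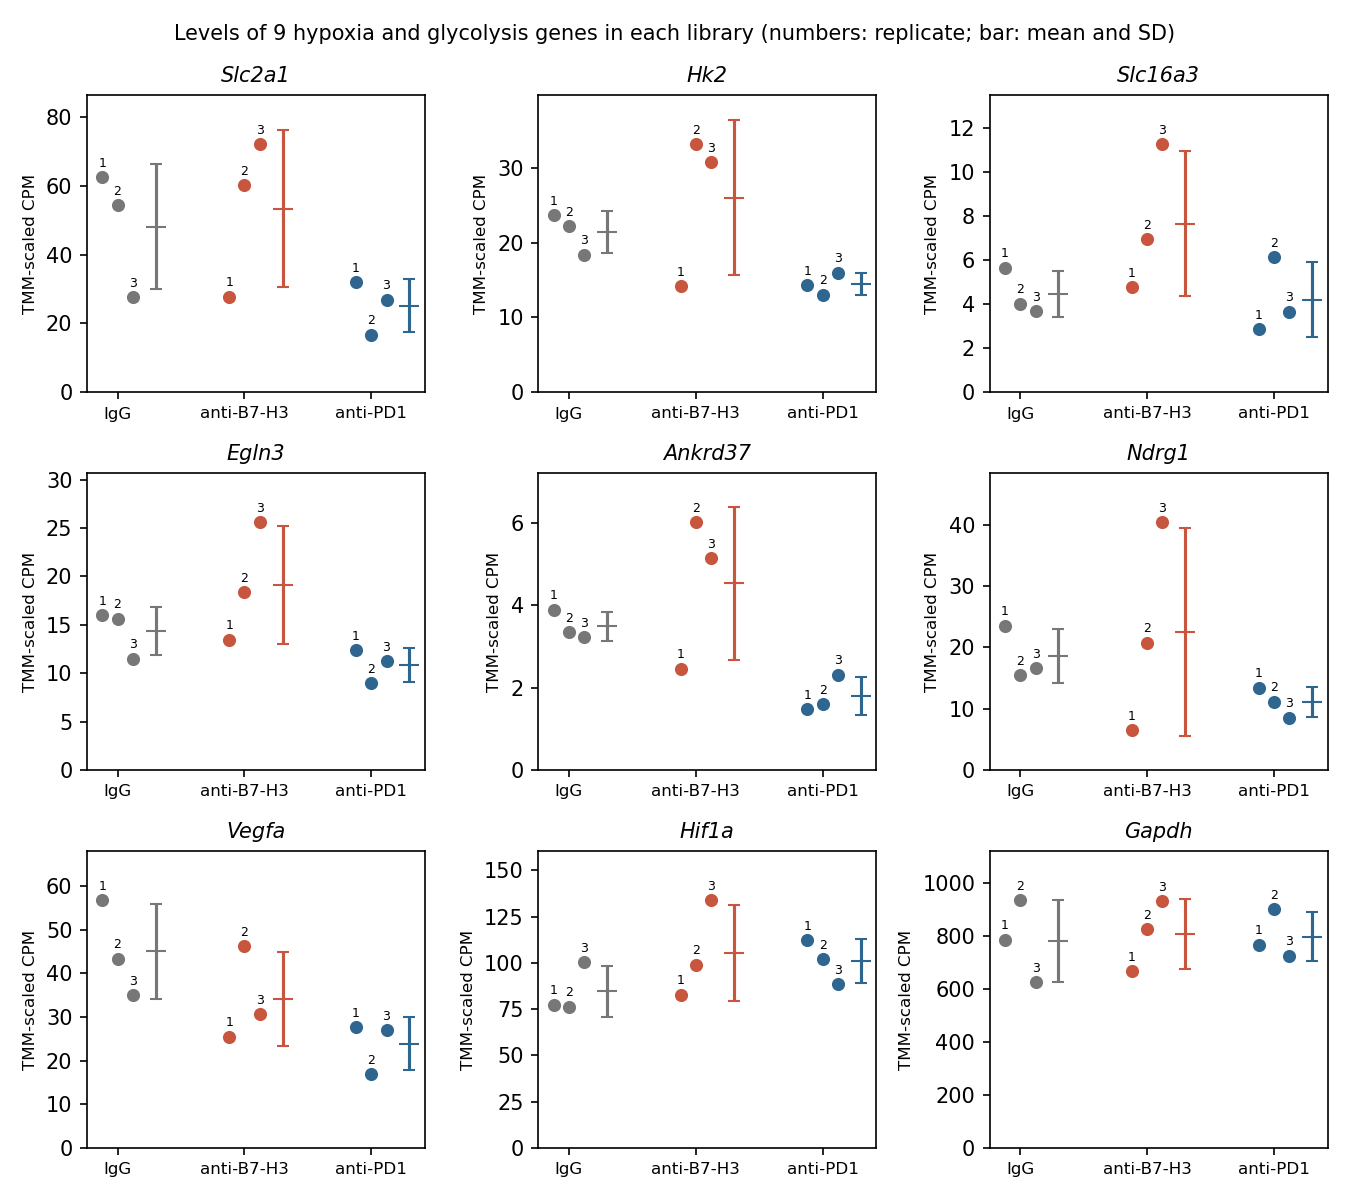
TMM-scaled CPM of 9 genes in each library (points, numbered by replicate) with the group mean and SD (bars, n = 3), for IgG, anti-B7-H3 and anti-PD1. In the panels of Slc2a1, Hk2, Egln3, Ankrd37 and Ndrg1, anti-B7-H3 replicates 2 and 3 stand above all anti-PD1 libraries while replicate 1 lies near, within or below them, and Gapdh overlaps across the groups.

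Of the 14 glycolytic enzymes, 13 had a higher estimate under anti-B7-H3 than under IgG and 13 a higher one than under anti-PD1, at medians of 0.32 and 0.31, and 8 of 14 were higher under anti-PD1 than under IgG (median 0.03). Hk2, the inducible hexokinase that traps glucose in the cell and is a HIF target, had the largest estimate of the 14 between the antibodies. Its CPM was 23.8, 22.3 and 18.4 under IgG, 14.2, 33.2 and 30.9 under anti-B7-H3, and 14.4, 13.0 and 16.0 under anti-PD1. All anti-PD1 libraries lay below all IgG libraries, and anti-B7-H3 replicate 1 alone of its group lay among the anti-PD1 values. The log2 fold change between the antibodies was 0.85 ± 0.28 (edgeR adjusted p = 0.749), and that of anti-PD1 against IgG was -0.58 ± 0.29 (adjusted p = 0.306). In the edgeR test over all 3 groups, Hk2 had an adjusted p of 0.301, which became 0.0325 without anti-B7-H3 replicate 1.

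Hk1, the constitutive hexokinase, was steadier. It stood at 103, 95.8 and 77.3 CPM under IgG, 96.3, 106 and 98.9 under anti-B7-H3, and 88.5, 61.7 and 96.1 under anti-PD1. The 2 antibody groups met without overlapping, 96.3 being the lowest anti-B7-H3 value and 96.1 the highest anti-PD1 value, and the log2 fold change was 0.29 ± 0.20. The estimate for Hk2 was larger than that for Hk1, but the difference between the 2 genes was not tested.

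The next steps isomerise and phosphorylate the sugar. Gpi1, the glucose 6-phosphate isomerase, ranged from 167 to 177 CPM under IgG, from 145 to 213 under anti-B7-H3 and from 149 to 210.5 under anti-PD1, and its estimates were 0.07, 0.03 and 0.05 in the 3 comparisons. Phosphofructokinase commits the sugar to glycolysis, and its platelet-type gene Pfkp was at 35.0, 26.0 and 28.1 CPM under IgG, 21.2, 48.2 and 63.8 under anti-B7-H3, and 33.4, 22.1 and 28.9 under anti-PD1. Anti-B7-H3 replicates 2 and 3 were the highest of the 9 for Pfkp and replicate 1 the lowest. Its log2 fold change between the antibodies was 0.66 ± 0.33, and that of the liver-type gene Pfkl was 0.38 ± 0.22.

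Among the enzymes that split the sugar and harvest its energy, Aldoa was at 315, 327 and 185 CPM under IgG, 286, 389 and 518 under anti-B7-H3, and 299.7, 398 and 286 under anti-PD1. Phosphoglycerate kinase, Pgk1, makes the first ATP of the pathway. It stood at 225, 241 and 128 CPM under IgG, 200.2, 317 and 399 under anti-B7-H3, and 244, 279.7 and 205 under anti-PD1. Both genes were lowest in IgG replicate 3 and highest in anti-B7-H3 replicate 3. Their log2 fold changes for anti-B7-H3 against IgG were 0.53 ± 0.29 and 0.62 ± 0.30 (edgeR adjusted p = 0.572 and 0.507).

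Eno1, which forms phosphoenolpyruvate, had the same lowest and highest library. Its CPM was 458, 454 and 270.2 under IgG, 391, 550.1 and 703 under anti-B7-H3, and 453, 425 and 429 under anti-PD1. The anti-PD1 libraries differed from each other far less than those of the other groups did, and the log2 fold change of Eno1 was 0.47 ± 0.28 for anti-B7-H3 against IgG and 0.33 ± 0.27 between the antibodies. The triosephosphate isomerase gene Tpi1 and the phosphoglycerate mutase gene Pgam1 had estimates of 0.31 and 0.35 for anti-B7-H3 against IgG and of 0.34 and 0.06 for anti-PD1 against IgG. The brain-type enzymes Eno2, at 1.38 to 3.70 CPM, and Aldoc, at 0.364 to 1.90 CPM, were low in every library.

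Gapdh was the flattest of the abundant enzymes. Its CPM was 787, 935 and 626 under IgG, 669, 827 and 932 under anti-B7-H3, and 769, 902 and 727 under anti-PD1. The groups overlapped fully, and the 95% interval of the log2 difference between the antibodies ran from -0.52 to 0.56 around 0.02. Processed copies share much of the sequence of these enzymes, so reads could be split among them. Gm10358 holds 77.0% and Gm3839 72.6% of the 31-base words of Gapdh, yet each had at most 67 reads in a library where Gapdh had 1360 or more. Their part differed between libraries: 67 and 51 reads beside 1360 of Gapdh in IgG replicate 3, and 4 and 17 beside 36247 in anti-B7-H3 replicate 3. Eno1b holds 79.5% of the words of Eno1 and had 9 reads or fewer.

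The last enzyme, pyruvate kinase, comes in M1 and M2 forms made from the same gene by a choice between a pair of neighbouring exons. The M2 form is known for its regulated activity in proliferating and tumor cells, and M1 for muscle and other differentiated tissue. The total level of Pkm was 888, 836 and 610 CPM under IgG, 716, 898 and 1056 under anti-B7-H3, and 705, 678 and 646 under anti-PD1. All anti-B7-H3 libraries lay above all anti-PD1 libraries, the nearest being at 716 and 705 CPM. The log2 fold change of Pkm between the antibodies was 0.40 ± 0.24 (edgeR adjusted p = 0.770). The exons, which set the M1 and M2 reads apart, are printed from GENCODE M21 on GRCm38, plus strand, with the bases at which they differ in capitals. The M1 exon, at chr9:59675029-59675195, belongs to transcript ENSMUST00000163694.3, and the M2 exon, at chr9:59675568-59675734, to transcript ENSMUST00000034834.15.
Pkm M1 exon: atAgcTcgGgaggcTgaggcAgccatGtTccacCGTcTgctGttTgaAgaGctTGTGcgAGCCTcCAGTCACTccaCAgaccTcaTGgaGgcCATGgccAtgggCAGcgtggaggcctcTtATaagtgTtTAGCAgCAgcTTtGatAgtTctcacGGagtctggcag
Pkm M2 exon: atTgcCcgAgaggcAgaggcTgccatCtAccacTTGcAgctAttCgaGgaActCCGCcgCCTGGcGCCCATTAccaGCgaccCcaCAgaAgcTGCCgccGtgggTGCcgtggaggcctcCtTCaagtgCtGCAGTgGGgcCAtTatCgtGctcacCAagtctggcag
Each exon has 167 bases, 64 positions differ, and the identity is 61.7%, so a read within the exon carries several bases that mark its form.

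M2 was the main form in every library. The share of M1 among reads assigned to the full-length M1 and M2 transcripts was 14.3, 17.5 and 13.4% under IgG, 17.7, 18.9 and 17.1% under anti-B7-H3, and 10.1, 10.7 and 14.7% under anti-PD1. The anti-B7-H3 libraries lay above all anti-PD1 libraries, the group means being 17.9% ± 0.900 and 11.8% ± 2.51 (SD, n = 3). The difference of 6.05 percentage points had a two-sided exact permutation p of 0.1, the smallest that 3 against 3 libraries allow, and an adjusted value of 0.45 over the 9 isoform comparisons made. Beside these shares, anti-B7-H3 replicate 2 had the highest M1 share with muscle genes at 1.19 CPM, and anti-PD1 replicate 2 had a share of 10.7% with muscle genes at 1210 CPM; the part of muscle in the M1 share was not tested. The shares come from the quantifier's assignment of reads to transcripts, whose own error is not given.

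For other enzymes the shares of isoforms varied widely between libraries of the same group, and Aldoa and Ldha are described here. They were not the only ones: an 841-base isoform of Gapdh took 31.9, 35.7 and 0% of its reads in IgG replicates 1, 2 and 3. The 1254-base coding isoform of Aldoa, longer than the main one of 1092 bases, was listed at 0, 8.23 and 0% of reads under IgG, 0, 8.92 and 14.6% under anti-B7-H3, and 0, 26.5 and 0% under anti-PD1. It was listed at 0 in 5 of 9 libraries. The share was highest in anti-PD1 replicate 2, then in anti-B7-H3 replicate 3, where muscle genes were at 1210 and 1777 CPM. Anti-B7-H3 replicate 2 held 8.92% with muscle genes at 1.19 CPM, and anti-PD1 replicate 3 held 0% with 524 CPM. The part of muscle in this share was not tested.

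Ldha reduces pyruvate to lactate. Its 1083-base isoform took 13.2, 31.4 and 21.9% of its reads under IgG, 25.7, 49.2 and 59.1% under anti-B7-H3, and 31.9, 64.7 and 41.9% under anti-PD1. All anti-PD1 shares lay above all IgG shares, by 24.0 percentage points on average (two-sided exact permutation p = 0.1, adjusted 0.45), and the anti-B7-H3 shares overlapped those of IgG. Reads outside satellite genes were fewer in each IgG library than in any antibody library, and their part in these shares was not tested.

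**Figure D5:**
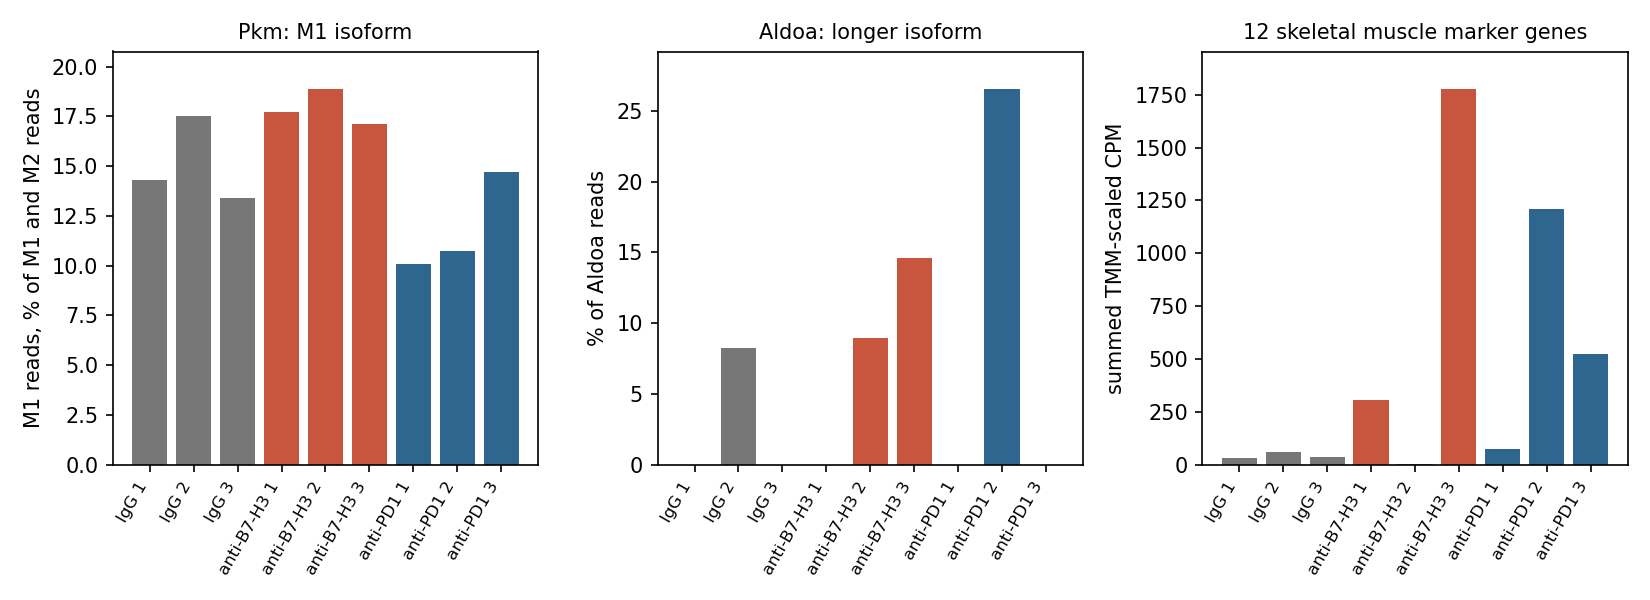
Left, reads of the M1 form as a percentage of M1 and M2 reads of Pkm. Middle, percentage of Aldoa reads in its 1254-base isoform. Right, summed TMM-scaled CPM of 12 skeletal muscle genes. Each bar is 1 library, coloured by group. The M1 bars of anti-B7-H3 (17.1 to 18.9%) are all higher than those of anti-PD1 (10.1 to 14.7%), and the muscle bar of anti-B7-H3 replicate 2 is 1.19 CPM.

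The 4 genes of lactate and pyruvate handling had positive estimates for anti-B7-H3 against both other groups, at medians of 0.46 against IgG and 0.31 against anti-PD1, and none passed the test. Slc16a3, the lactate exporter MCT4 and a HIF target, was at 5.65, 4.02 and 3.68 CPM under IgG, 4.76, 6.95 and 11.3 under anti-B7-H3, and 2.84, 6.12 and 3.65 under anti-PD1. The values 4.76 and 6.12 made its antibody groups overlap. Estimated log2 fold changes were 0.86 ± 0.35 between the antibodies (edgeR adjusted p = 0.749) and 0.77 ± 0.39 for anti-B7-H3 against IgG (adjusted p = 0.528).

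Slc16a1, the broadly expressed transporter MCT1 that carries lactate both ways, separated the antibodies without overlap. It was at 15.6, 13.4 and 7.82 CPM under IgG, 15.4, 17.4 and 21.4 under anti-B7-H3, and 13.6, 14.9 and 12.2 under anti-PD1. The gap between the nearest libraries was small, 15.4 against 14.9 CPM, and the log2 fold change was 0.42 ± 0.22. Ldha itself was at 224, 225 and 133 CPM under IgG, 205, 273 and 298 under anti-B7-H3, and 245, 244 and 188 under anti-PD1. Pdk1, the kinase that shuts pyruvate out of the mitochondrial cycle, had estimates of 0.05, -0.07 and 0.12, all smaller than their standard errors of 0.25 to 0.26.

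Pfkfb3 and Pfkfb4 set the level of fructose 2,6-bisphosphate, the activator of phosphofructokinase. Pfkfb3 was at 7.40, 5.03 and 4.60 CPM under IgG, 5.12, 8.0 and 11.4 under anti-B7-H3, and 4.66, 6.08 and 6.24 under anti-PD1. Pfkfb4 was at 1.56, 2.90 and 3.68, at 3.99, 3.47 and 3.75, and at 1.97, 3.07 and 3.06 in the same order of groups. Pfkfb4 was 1 of the few members at its highest in anti-B7-H3 replicate 1, and its anti-B7-H3 libraries lay above all anti-PD1 libraries. Between the antibodies the estimates were 0.53 ± 0.29 for Pfkfb3 and 0.46 ± 0.30 for Pfkfb4.

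The 2 alpha subunits were measured at the RNA level only. Hif1a was at 77.3, 76.2 and 100.4 CPM under IgG, 82.8, 98.9 and 134 under anti-B7-H3, and 112, 102 and 88.5 under anti-PD1. The groups overlapped, and the difference between the antibodies, 0.06, had a 95% interval from -0.41 to 0.53 on the log2 scale. Epas1, the alpha subunit HIF-2 alpha that is prominent in endothelium, was at 13.0, 17.2 and 11.5 CPM under IgG, 14.0, 14.6 and 11.7 under anti-B7-H3, and 8.60, 4.79 and 14.1 under anti-PD1. It was lowest in anti-PD1 replicate 2, and its log2 fold change for anti-PD1 against IgG was -0.63 ± 0.34 (edgeR adjusted p = 0.343).

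The hydroxylases report on HIF as well as restraining it, since Egln3 and, more weakly, Egln1 are themselves HIF targets. Egln3 was at 16.0, 15.6 and 11.5 CPM under IgG, 13.5, 18.3 and 25.6 under anti-B7-H3, and 12.4, 8.93 and 11.2 under anti-PD1. Every anti-B7-H3 library was above every anti-PD1 library, replicate 1 by the smallest margin. Its log2 fold change of 0.82 ± 0.24 had the second smallest p of the members in that comparison (edgeR adjusted p = 0.749). Egln1, the main oxygen sensor in most cells, was at 20.1, 21.7 and 17.5 CPM under IgG, 15.5, 19.8 and 18.7 under anti-B7-H3, and 17.0, 13.8 and 13.0 under anti-PD1. The anti-PD1 libraries lay below all IgG libraries, with an estimate of -0.45 ± 0.19 on the log2 scale (edgeR adjusted p = 0.234).

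Vegfa, the growth factor that drives new vessels, gave the smallest p of any member against IgG. Its CPM was 56.7, 43.3 and 35.0 under IgG, 25.4, 46.2 and 30.6 under anti-B7-H3, and 27.7, 16.9 and 27.0 under anti-PD1. All anti-PD1 libraries lay below all IgG libraries, and the anti-B7-H3 libraries overlapped both groups. The log2 fold change of anti-PD1 against IgG was -0.93 ± 0.28, about 0.526 times the IgG level, with an edgeR adjusted p of 0.134. DESeq2 gave -0.93 with an adjusted p of 0.0413, the only member it called in any pair, in a comparison where it called 6.27% of all genes. Over the alternatives other than scaling by library totals, the adjusted p of Vegfa ranged from 0.0413 to 0.912 and the estimate from -1.18 to -0.70. Between the antibodies, the Vegfa estimate was 0.52 ± 0.27.

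Adm, the vasodilator peptide adrenomedullin, was low at 0.819 to 2.73 CPM, and its estimates had standard errors of 0.44 to 0.48. The carbonic anhydrases Car9 and Car12 balance acid at the cell surface. Car9, among the most HIF-dependent genes known, was at 6.81, 3.91 and 3.22 CPM under IgG, 1.89, 7.25 and 7.41 under anti-B7-H3, and 4.59, 1.85 and 2.32 under anti-PD1. It repeats in a gene of low level the split within the anti-B7-H3 group, replicate 1 being the second lowest and replicates 2 and 3 the highest of the 9. The log2 fold change of Car9 between the antibodies was 0.96 ± 0.50 (edgeR adjusted p = 0.759). Car12 was at 0.139 to 1.38 CPM, and no difference was detectable at this depth.

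Bnip3, Bnip3l and Higd1a act at the mitochondrion, the first 2 marking it for removal by autophagy and the last supporting respiration under low oxygen. Bnip3 was at 17.9, 17.1 and 18.9 CPM under IgG, 12.4, 23.9 and 30.2 under anti-B7-H3, and 23.5, 18.3 and 14.6 under anti-PD1. Bnip3l had estimates of -0.27 against IgG and -0.25 against anti-PD1 for the anti-B7-H3 group. Higd1a was at 8.57, 6.37 and 7.36 CPM under IgG, 6.60, 12.1 and 17.6 under anti-B7-H3, and 9.40, 9.76 and 7.85 under anti-PD1. Its log2 fold change of 0.72 ± 0.32 for anti-B7-H3 against IgG (edgeR adjusted p = 0.466) rests on replicates 2 and 3, replicate 1 lying within the IgG range, and without replicate 1 it was 1.02.

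P4ha1 and P4ha2 hydroxylate collagen, a step that hypoxia is known to raise. P4ha1 was at 86.0, 83.0 and 107 CPM under IgG, 77.6, 143 and 137 under anti-B7-H3, and 129, 95.5 and 92.9 under anti-PD1. P4ha2 was at 18.7, 12.5 and 17.5, at 10.7, 22.0 and 22.8, and at 16.9, 12.3 and 14.0 in the same order. Both had anti-B7-H3 replicate 1 as the lowest of all 9 libraries and replicates 2 and 3 as the highest, and their estimates between the antibodies were 0.17 ± 0.25 and 0.37 ± 0.28.

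Ankrd37, a small ankyrin repeat gene known as a HIF target, had the smallest p of the 40 in the test over 3 groups and between the antibodies. Its CPM was 3.89, 3.35 and 3.22 under IgG, 2.46, 6.02 and 5.14 under anti-B7-H3, and 1.47, 1.60 and 2.32 under anti-PD1. The anti-PD1 libraries were the 3 lowest of the 9 and anti-B7-H3 replicates 2 and 3 the highest, while the IgG libraries and anti-B7-H3 replicate 1 lay between them. The log2 fold change between the antibodies was 1.34 ± 0.35, a fold of 2.52 (edgeR adjusted p = 0.749), and that of anti-PD1 against IgG was -0.96 ± 0.38 (adjusted p = 0.213). Its p ranked 39 among the 12964 tested genes between the antibodies. In the edgeR test over 3 groups the adjusted p was 0.185, and it was 0.0462 without anti-B7-H3 replicate 1 and 0.0470 without the filter on low counts.

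Ndrg1, a stress gene induced by HIF and by low iron, was uneven within the anti-B7-H3 group. It was at 23.6, 15.4 and 16.6 CPM under IgG, 6.5, 20.7 and 40.4 under anti-B7-H3, and 13.4, 11.1 and 8.52 under anti-PD1. The anti-B7-H3 group held both the lowest and the highest of the 9 libraries. The log2 fold change of Ndrg1 between the antibodies, 1.04, had a standard error of 0.52 and an edgeR adjusted p of 0.758, although all anti-PD1 libraries lay below all IgG libraries. The histone demethylase gene Kdm3a, the MYC antagonist gene Mxi1 and the mTORC1 inhibitor gene Ddit4 had estimates between the antibodies of 0.08, 0.00 and 0.38. Ddit4 was lowest in IgG replicate 3, at 6.90 CPM, beside 20.1 and 25.9 in the other IgG libraries.

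The start sites of the members were read for the letters that HIF recognises. Printed below are the windows of the 4 members with the smallest p between the antibodies (Ankrd37, Egln3, Hk2 and Slc2a1). All 4 are known as HIF targets, but the members were chosen to include such targets, so this is not a separate finding. None of the 4 passed the edgeR test (adjusted p = 0.749 for each), and the part of HIF in their levels was not tested. The windows come from RefSeq on GRCm38.p6 and hold 250 bases before and 50 after the gene's start, written along the gene's own strand. They lie at chr8:45999801-46000100 (minus strand) for Ankrd37, chr12:54203825-54204124 (minus) for Egln3, chr6:82774405-82774704 (minus) for Hk2 and chr4:119108495-119108794 (plus) for Slc2a1. Capitals mark ACGTG or GCGTG on either strand, so CACGT and CACGC are the same cores read from the other strand.
Ankrd37: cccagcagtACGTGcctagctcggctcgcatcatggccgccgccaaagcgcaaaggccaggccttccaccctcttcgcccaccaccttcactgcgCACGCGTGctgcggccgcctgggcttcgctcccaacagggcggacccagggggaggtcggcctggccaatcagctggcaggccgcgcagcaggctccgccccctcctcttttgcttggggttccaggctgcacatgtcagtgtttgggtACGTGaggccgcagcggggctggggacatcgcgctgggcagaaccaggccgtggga
Egln3: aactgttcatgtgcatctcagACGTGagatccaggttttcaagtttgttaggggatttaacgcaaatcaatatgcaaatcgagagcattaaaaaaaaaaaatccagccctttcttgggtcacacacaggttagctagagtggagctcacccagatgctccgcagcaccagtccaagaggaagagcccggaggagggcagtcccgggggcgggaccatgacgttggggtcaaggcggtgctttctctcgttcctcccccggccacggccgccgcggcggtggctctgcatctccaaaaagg
Hk2: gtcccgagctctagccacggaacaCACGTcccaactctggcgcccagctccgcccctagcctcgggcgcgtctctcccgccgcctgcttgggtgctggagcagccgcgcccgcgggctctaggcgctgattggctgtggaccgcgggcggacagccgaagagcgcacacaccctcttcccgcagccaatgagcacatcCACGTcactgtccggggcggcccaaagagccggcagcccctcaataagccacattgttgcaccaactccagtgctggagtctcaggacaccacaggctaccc
Slc2a1: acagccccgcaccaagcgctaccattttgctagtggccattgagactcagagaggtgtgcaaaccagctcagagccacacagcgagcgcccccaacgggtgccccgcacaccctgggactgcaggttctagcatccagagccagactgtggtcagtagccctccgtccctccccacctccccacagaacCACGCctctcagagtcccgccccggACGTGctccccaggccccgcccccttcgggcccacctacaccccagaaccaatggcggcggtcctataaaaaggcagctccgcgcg
The Ankrd37 window holds 4 cores, 2 of which overlap in CACGCGTG, and those of Egln3, Hk2 and Slc2a1 hold 1, 2 and 2.

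RefSeq windows were matched for 36 of the 40 members, and those of Slc2a3, Epas1, Bnip3l and Ndrg1 were not matched. A core of either kind stood in 27 of 36 (75.0%), against 62.6% of the 10082 tested genes with a window and 43.8% of all 32851 windows of this length. ACGTG, the rarer core, stood in 20 of 36 (55.6%), against 25.2% of tested genes and 19.6% of all windows. At least 2 cores stood in 58.3% of the members, 33.8% of tested genes and 20.6% of all windows. ACGTG is also part of the E-box CACGTG, which was present in the windows of Ldha, Slc16a1, Hif1a and Bnip3. A match is a string of letters and not a bound site. The 9 windows without a core, among them those of Vegfa, Car12, Pkm and Aldoa, say only that these letters are not within these 300 bases.

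Genes around the 40 were read from 7 further lists, and none of their tested members passed the edgeR test in any pair. Of 38 other HIF targets, 36 were tested. Their medians were 0.26 for anti-B7-H3 against IgG (29 of 36 higher), -0.09 for anti-PD1 against IgG (14 of 36) and 0.26 between the antibodies (26 of 36), beside 0.03, 0.01 and 0.01 for all tested genes. Trf, which encodes the iron carrier transferrin, gave the smallest adjusted p, 0.0996 for anti-PD1 against IgG. It was at 18.1, 25.8 and 15.2 CPM under IgG, 38.2, 38.2 and 50.2 under anti-B7-H3, and 38.1, 77.4 and 31.3 under anti-PD1, so both antibody groups lay above IgG. Rora, a nuclear receptor gene, lay below IgG in all 6 antibody libraries, with estimates of -1.25 and -1.05 (edgeR adjusted p = 0.159 and 0.160). Loxl2, a collagen crosslinking enzyme, had an estimate between the antibodies of 0.90.

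In the 12 tested enzymes of glycolysis outside the 40, the medians were 0.30, 0.07 and 0.07. Hk3, the hexokinase of myeloid cells, was at 13.0, 6.14 and 6.44 CPM under IgG, 10.4, 16.4 and 36.5 under anti-B7-H3, and 6.56, 9.32 and 9.38 under anti-PD1. The anti-B7-H3 libraries of Hk3 lay above all anti-PD1 libraries, the nearest being at 10.4 and 9.38 CPM. The log2 fold change of Hk3 between the antibodies was 1.32 ± 0.43 (edgeR adjusted p = 0.749). The muscle enzyme genes Pfkm and Eno3 were highest in anti-B7-H3 replicate 3 (40.7 and 33.6 CPM) and anti-PD1 replicate 2 (37.1 and 26.0 CPM), the 2 libraries with the most muscle marker reads. Bpgm, which makes 2,3-bisphosphoglycerate, had an estimate of -0.46 between the antibodies.

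The oxygen sensing machinery around HIF gave 18 tested genes with medians of 0.11, 0.01 and 0.01. Cul2, the scaffold of the VHL ubiquitin ligase, was at 14.0, 15.2 and 20.3 CPM under IgG and at 30.1, 31.3 and 22.6 under anti-PD1, an estimate of 0.79 ± 0.26 on the log2 scale (edgeR adjusted p = 0.154). Vhl itself had an estimate of 0.86 and Cited2, which competes with HIF for its coactivator, one of -0.50 for anti-B7-H3 against IgG. Arnt2 and Siah2 had estimates of 0.83 and 0.26 between the antibodies. The largest of the named differences, in Arnt2 for anti-PD1 against IgG (-1.73), concerned a gene at 0.291 to 1.84 CPM.

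The fates of pyruvate and of early sugar phosphates were described by 3 lists. For the 13 genes of pyruvate entry to mitochondria the medians were 0.17, 0.21 and -0.09, so here 4 of 13 were higher under anti-B7-H3 than under anti-PD1, unlike the 38 of 40 above. Dld, a subunit of pyruvate dehydrogenase, was at 28.4, 26.3 and 32.7 CPM under IgG, 26.3, 33.6 and 38.4 under anti-B7-H3, and 44.9, 42.1 and 34.9 under anti-PD1. Its anti-PD1 libraries lay above all IgG libraries (log2 fold change 0.49 ± 0.19, edgeR adjusted p = 0.211). Dlat and Pdk2 had estimates of 0.35 and -0.59 for anti-B7-H3 against IgG, and Pdp2 one of 0.61 between the antibodies.

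The 13 pentose phosphate and serine genes had medians of 0.28, 0.11 and 0.12. Rpe, an epimerase of that branch, was higher than IgG by 0.65 under anti-B7-H3 and 0.69 under anti-PD1, Taldo1 by 0.66 and 0.54, and Pgd and Shmt2 had estimates of 0.40 and 0.28 between the antibodies. Only 3 of 7 gluconeogenesis genes were tested, at medians of -0.01, -0.36 and 0.29, with Pcx at -0.67 and -0.61 against IgG and Pck2 and G6pc3 at 0.29 and 0.35 between the antibodies. The 12 tested regulators of glycolysis had medians of 0.09, -0.09 and 0.09. Among them Mlxip, a glucose-sensing factor, was at 17.1, 13.5 and 15.6 CPM under IgG and at 9.25, 4.01 and 10.6 under anti-PD1 (log2 fold change -0.95 ± 0.32, edgeR adjusted p = 0.161). Prkaa2 had estimates of -1.51 and -1.64 against IgG at 0.278 to 5.06 CPM, and Mtor and Rptor had 0.43 and 0.36 between the antibodies.

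Scale decides how the comparisons with IgG read. Scaling by library totals, which counts satellite reads, would place all 40 members and nearly all genes far above IgG, with a median of 3.37 for all tested genes under anti-B7-H3 and 3.15 under anti-PD1, and the members at 3.67 and 3.10. Relative to those shifts, the members lay slightly above all genes under anti-B7-H3 and slightly below under anti-PD1, as with TMM. Rescaling multiplies all genes of a library by the same factor, so this likeness is nearly fixed in advance and is no separate result. With the level of receptor genes as a covariate, the median of the members turned to -0.33 for anti-B7-H3 against IgG and was -0.63 for anti-PD1 against IgG. Between the antibodies it was 0.25 under the same covariate, beside 0.38 without it, with 34 of 40 members higher under anti-B7-H3. That fit estimates the covariate from 9 libraries in 3 groups and does not adjust for satellite reads. It therefore cannot decide what part receptor or satellite reads have in the difference. Ankrd37, Egln3, Hk2, Slc2a1 and Slc16a3 were picked for their small p between the antibodies. Their estimates in that comparison were positive under each of the 18 alternatives other than library totals. The alternatives refit the same libraries or all but 1 of them, so this constant sign is not separate evidence of a difference. The lowest adjusted p of these genes among those alternatives was 0.101, for Hk2.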

How the data were processed

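The deposited tables hold, per the file headers, estimated counts per transcript, and the authors' TPM values and effective lengths beside them; TPM was not used for tests. FastQC 0.11.8 and GRCm38 are named in the submitters' processing notes, and the quantification tool is not named in those notes. Listed lengths equal the coding sequence for 92.2% of matched transcripts, so lengths are coding lengths. Of 58083 transcripts, 57409 matched GENCODE M21, and the 674 others held at most 0.369% of reads. Counts were summed per gene and rounded, and 2 identifiers of Aldoa were joined.

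The test was the edgeR (4.0.16, in R 4.3.3) quasi-likelihood F test (TMM, filterByExpr by group, robust quasi-likelihood fit of all 9 libraries, group as the only term), with Benjamini-Hochberg adjustment over 12964 genes and a threshold of 0.05. The script was tested on simulated data. Alternatives were DESeq2 1.42.0, limma-voom (limma 3.58.1), other scalings and filters, a replicate block, a receptor gene covariate and leaving out each library. Satellite genes share more than 30% of their 15-base words with 5 seed genes of that repeat. The 40 genes are all named, with up to 2 genes of smallest p per comparison from each related list, except 1 gene that is not reported here. The members, the lists and the measures of satellite and receptor reads were chosen with earlier results of these data known. The levels are TMM-scaled CPM, and ± after a log2 fold change is its standard error.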

Additional observations from a re-analysis of the deposited data

How the results depend on the processing

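The 40 genes were refitted under 10 alternatives and without each of the 9 libraries in turn. Counts of all genes called, 72 in anti-B7-H3 against IgG, 51 in anti-PD1 against IgG and 0 between the antibodies, were unstable: in that order DESeq2 gave 495, 813 and 24, library totals 12529, 12334 and 24, and no filter on low counts 1097, 731 and 4. For the 2 comparisons with IgG, totals without satellite genes gave 118 and 19, a minimum of 1 CPM in 3 libraries 10 and 16, only the libraries compared 20 and 88, and the receptor covariate 0 and 6, while limma-voom gave 45 for anti-B7-H3 against IgG. Leaving out 1 library gave 8 to 441 in the first and 9 to 432 in the second, the lowest without IgG replicate 1 and the highest without IgG replicate 2 in both.

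Of the members, library totals called 40 in each comparison with IgG and 40 over the 3 groups, and DESeq2 called 1 (Vegfa, anti-PD1 against IgG). In the edgeR test over 3 groups, 1 (Ankrd37) passed without the filter and, leaving out 1 library, 0 to 2 passed, the 2 being Hk2 and Ankrd37 without anti-B7-H3 replicate 1. The median of the members against IgG became -0.33 (anti-B7-H3) and -0.63 (anti-PD1) with the receptor covariate, and 3.67 and 3.10 on the scale of library totals. On that scale the members with a negative estimate turned positive, with log2 fold changes in anti-B7-H3 against IgG of Eno2 3.18, Epas1 3.21, Egln1 3.20, Vegfa 2.98, Adm 3.23, Car12 2.58, Bnip3l 3.15, Mxi1 3.34 and Ddit4 3.06, and in anti-PD1 against IgG of Slc2a1 2.12, Hk1 2.97, Hk2 2.57, Pfkl 3.04, Pfkp 3.09, Eno2 2.85, Pkm 2.93, Pdk1 3.09, Slc16a3 3.11, Pfkfb3 3.18, Epas1 2.48, Egln1 2.67, Egln3 2.69, Vegfa 2.22, Adm 2.49, Car9 2.38, Car12 2.40, Bnip3l 3.15, P4ha2 3.04, Ankrd37 2.21, Ndrg1 2.42, Mxi1 3.09 and Ddit4 2.53. In anti-PD1 against IgG the median of the members was also 0.18 with totals without satellite genes, where that of all tested genes was 0.25. With no filter it was 0.15, where that of all tested genes was -0.19. The members thus lay below all genes in the first fit and above them in the second. The first fit rescales all genes of a library alike, so the members' place among them is nearly fixed. Leaving out 1 library gave -0.15 to -0.0002. The cause of these shifts was not tested, beyond the changed scale or gene set itself. Single members changed sign in 0 to 27, 0 to 23 and 0 to 6 of 40 across alternatives for the 3 comparisons.

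The replicate numbers are not stated to pair the libraries. Deviations from the group mean correlated at -0.33 to 0.22 for same-numbered libraries and at -0.45 to 0.55 for differently numbered ones. With 3 libraries in a group, these correlations cannot exclude a pairing. With the replicate block, 124 genes were called for anti-PD1 against IgG and 0 members in any pair, and the members' medians were 0.28, -0.07 and 0.35. The fewest reads outside satellite genes, 1218985 in IgG replicate 3, limit the precision for members of low level such as Slc2a3, Car12 and Aldoc.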
